A study of Homo sapiens with 24 samples.

Results

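The respiratory chain and ATP synthase of human cells are built from subunits of 2 genomes, and their mRNAs were followed here in A549, a human lung adenocarcinoma line. The genes were taken by name: protein-coding symbols of complex I (those starting with NDUFA, NDUFB, NDUFC, NDUFS or NDUFV), complex II (SDHA to SDHD), complex III (UQCR genes and CYC1), complex IV (COX4I1, COX5, COX6, COX7 and COX8A genes) and complex V (ATP5F1, ATP5M and ATP5P genes), with the 13 mRNAs of the mitochondrial genome. Assembly factors of complex I (NDUFAF genes) and complex III (UQCC genes) were left out. The rule gave 101 of 35579 genes, 13 of them mitochondrially encoded and 88 nuclear-encoded. NDUFA4 and NDUFA4L2 are counted with complex IV, where NDUFA4 is now placed. The names NDUFC2-KCTD14 and ATP5MF-PTCD1 are 2 readthrough genes, transcribed across a member and its neighbour, whose reads cannot be fully separated from those of NDUFC2 and ATP5MF.

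The study compared polyadenylated RNA of 10 groups of A549 cells in 2 experiments. In whole cells, the groups were a pool of siRNAs against the kinase TAOK2 (siTAOK2), a control siRNA pool (siCON), compound 2, which the labels give as a TAOK2 inhibitor, and its vehicle DMSO, each with 3 libraries, 1 from batch A, B and C. The other experiment fractionated cells with siTAOK2 or siCON: RNA was total, nuclear or cytoplasmic, each with 2 libraries, 1 from batch 1 and 1 from batch 2. Both siRNA pools were used at 30 nM, all cells are labelled wild type, and neither dose nor time of compound 2 was found in the labels. The titles of all whole-cell libraries also carry the word mock, which those of the fractionation libraries lack. The values are TPM, the length-corrected share of a transcript in a fixed total per library, so a gain of one RNA lowers all others, and the depth is unknown beyond a minimum read number stated in the labels. TAOK2 itself stood at 10.6, 12.5 and 8.56 TPM in siTAOK2 libraries, against 40.3, 38.2 and 34.3 TPM in siCON libraries (log2 change -1.75, adjusted p = 2.32e-05 by limma), and at 21.5, 30.7 and 20.5 TPM with compound 2, against 39.7, 40.6 and 37.5 TPM with DMSO (-0.70, adjusted p = 0.00136 by limma), so TAOK2 mRNA was lower in both. In the fractionation experiment TAOK2 did not pass. It stood at 3.67 and 2.99 TPM in siTAOK2 total RNA, against 9.70 and 5.01 TPM in siCON total RNA, and at 2.41 and 0.728 TPM in siTAOK2 cytoplasmic RNA, against 7.63 and 3.37 TPM in siCON cytoplasmic RNA. In nuclear RNA the groups overlapped, with 9.68 and 6.24 TPM for siTAOK2, against 15.6 and 9.31 TPM for siCON. A fit with batch as a block called it in cytoplasmic RNA (adjusted p = 0.0128 by limma), but in neither total RNA (0.0522) nor nuclear RNA (0.121). The epithelial keratins KRT7, KRT8 and KRT18 were among the markers of the line, and 0 of 5 epithelial markers passed the test in either direction under siTAOK2 or compound 2. In the fit with the block, KRT18 rose (0.54) and EPCAM fell (-0.57) under siTAOK2. The siTAOK2 and siCON groups did not overlap for 4 of the 5, 3 of them above and 1 below. Over all genes tested, 18% lay above and 29.7% below without overlap. The labels mention triplicate transfections for the siRNAs and say nothing of separate cultures for compound 2, so p-values measure the spread between these libraries, which may be in part technical. In bulk RNA, fewer cells with an mRNA and less of it per cell cannot be told apart.

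Complex I (NADH dehydrogenase), complex III (cytochrome c reductase) and complex IV (cytochrome c oxidase) pump protons across the inner mitochondrial membrane, complex II (succinate dehydrogenase) feeds electrons in without pumping, and complex V (ATP synthase) uses the gradient to make ATP. Mitochondrial DNA encodes the most hydrophobic core subunits of all but complex II and is transcribed inside the organelle as long precursors that are cut at tRNAs. All other subunits are transcribed in the nucleus, spliced, exported and translated in the cytosol, so the supply of both sets has to be matched.

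Nuclear-encoded subunit genes are known for promoters bound by nuclear respiratory factor 1 (NRF1), by GABP, an ETS family factor, and by YY1 and Sp1. RefSeq promoters (GRCh38.p14) were found for 70 of the 88 genes, and the 250 bases before each start were searched on both strands. The NRF1 core GCATGCGC was present in 12 (17.1%), against 2.81% of all 27305 promoters and 3.70% of 15843 promoters of coding genes; it partly matches its own reverse complement, so a pair of matches can overlap. The ETS core CCGGAAG was present in 17 (24.3%), against 8.82% of all promoters and 11.8% of those of coding genes. The YY1 core AAGATGGCG was present in 1 (1.43%, against 0.641%), and the Sp1 box GGGCGG in 39 (55.7%, against 42.3% of all and 56.0% of coding promoters). At least 1 of the first 3 motifs was present in 24 promoters (34.3%), against 11.6% of all and 15.3% of coding promoters. A match is a run of letters and not a bound site. Sequences are shown for 2 genes with 3 matches, ATP5PF (subunit F6 of the ATP synthase stalk, chr21:25735055-25735304, minus strand) and COX6A1 (the form of a complex IV subunit found outside muscle, chr12:120437863-120438112, plus strand), and for ATP5MG (subunit g of ATP synthase, chr11:118401356-118401605, plus strand), which had none in this window. The windows follow RefSeq starts, which differ from those of the GENCODE genes used for counting. Those of ATP5PF and ATP5MG lie inside the GENCODE genes, whose 5′ ends are at 25735673 and 118401154. That of COX6A1 reaches past its GENCODE start at 120438090. Bases before the GENCODE 5′ ends of ATP5PF and ATP5MG are not in the windows shown. Capitals mark NRF1, ETS and YY1 matches on either strand, read 5′ to 3′ along the gene.
ATP5PF: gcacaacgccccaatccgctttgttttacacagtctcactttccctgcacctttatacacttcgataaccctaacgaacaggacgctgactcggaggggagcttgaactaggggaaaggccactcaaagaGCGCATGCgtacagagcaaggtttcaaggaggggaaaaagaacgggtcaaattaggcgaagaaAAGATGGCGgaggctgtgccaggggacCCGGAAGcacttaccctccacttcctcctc
COX6A1: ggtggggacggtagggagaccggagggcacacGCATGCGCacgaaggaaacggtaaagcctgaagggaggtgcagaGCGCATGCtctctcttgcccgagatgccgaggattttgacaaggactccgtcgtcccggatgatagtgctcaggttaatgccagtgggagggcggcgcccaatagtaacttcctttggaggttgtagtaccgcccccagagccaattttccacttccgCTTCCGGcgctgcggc
ATP5MG: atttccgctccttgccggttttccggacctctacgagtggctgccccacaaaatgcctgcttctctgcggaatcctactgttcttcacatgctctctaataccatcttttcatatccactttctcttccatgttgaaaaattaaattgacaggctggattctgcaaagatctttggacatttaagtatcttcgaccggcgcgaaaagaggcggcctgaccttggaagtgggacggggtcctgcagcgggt

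Per length, each mitochondrial mRNA was far more abundant than any nuclear-encoded subunit mRNA in whole cells. MT-CO1, the catalytic subunit of complex IV (ENSG00000198804, mitochondrial genome, 5904 to 7445), averaged 17978 TPM over the 12 libraries, with a range from 16111 to 19788.5. It was followed by MT-ATP8 at 13195, MT-CO3 at 13104, MT-ATP6 at 10452, MT-CO2 at 8549, MT-ND4 at 7317 and MT-ND4L at 6745 TPM. MT-ND1 at 5467, MT-CYB at 5391 and MT-ND2 at 4966 TPM came next, and MT-ND3 at 2608, MT-ND6 at 2471 and MT-ND5 at 2348 TPM closed the order. Neighbours in this order overlapped in range over the 12 libraries, except MT-ND2 (4263 to 5697 TPM) and MT-ND3 (2228 to 3016 TPM). The most abundant nuclear-encoded mRNA of each complex was NDUFC2 in complex I (325 TPM), SDHC in II (197 TPM), CYC1, cytochrome c1, in III (372 TPM), COX4I1 in IV (621 TPM) and ATP5F1B, the catalytic beta subunit, in V (802 TPM).

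The mRNAs MT-ATP8 and MT-ATP6 lie on 1 bicistronic transcript and share 46 bases (chrM:8527-8572, plus strand), and MT-ND4L and MT-ND4 share 7 (chrM:10760-10766), so the split of reads within each pair is uncertain. The shared stretch of MT-ATP8 and MT-ATP6 is shown because the start codon of MT-ATP6 lies inside the reading frame of MT-ATP8; the start codon of MT-ATP6 and the stop codon of MT-ATP8 are in capitals.
MT-ATP8 and MT-ATP6: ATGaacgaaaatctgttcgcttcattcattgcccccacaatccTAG
MT-ATP8 stood at 1.24 times MT-ATP6 with compound 2, against 1.27 times with DMSO. In the fractionation experiment it stood at 2.62 times in siCON nuclear RNA, 2.49 times in cytoplasmic RNA and 3.27 times in total RNA. With siTAOK2 the ratios were 2.86, 3.04 and 3.34 in the same order. As ratios of means, the higher values were thus not particular to nuclear RNA. Each rests on the means of 2 libraries, and MT-ATP8 differed widely between the batches. In siCON total RNA, 1 library held 2285 TPM of MT-ATP8 and 1705 TPM of MT-ATP6, so the higher ratio did not hold in every library. MT-ND6 lies on the other strand next to MT-ND5, and no source here gives the strand setting of the counting. Nuclear copies of mitochondrial DNA, 394 genes in the annotation, held between 1733 and 2311 TPM in the whole-cell libraries, so reads can also be shared with these.

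Several subunits have forms made in different tissues, and the widely expressed form was the abundant one in each pair. COX6A1 averaged 650.4 ± 49.0 TPM with compound 2 and 533 ± 6.40 TPM with DMSO (SD, n = 3), while the muscle form COX6A2 averaged 0.024 TPM over the 12 libraries. COX6B1 stood at 630.2 ± 60.4 TPM with compound 2 and 556 ± 43.1 TPM with DMSO, and the testis form COX6B2 averaged 0.449 TPM. COX7A2 averaged 165 ± 19.1 TPM with compound 2 and 135 ± 12.9 TPM with DMSO, while its muscle form COX7A1 averaged 1.35 ± 0.231 TPM with compound 2 and 1.91 ± 0.670 TPM with DMSO. The 3 genes for the c subunit of ATP synthase, whose mature proteins are known to be identical, were all well expressed. Genes under a mean of 1 TPM over the 12 libraries were not tested: COX6B2, UQCRHL, ATP5MGL, NDUFA6, COX6A2 and COX7B2. For NDUFA6 the level (0.215 TPM) is that of the transcripts that could be matched to a gene. This left 95 genes tested in whole cells, 13 mitochondrially encoded and 82 nuclear-encoded.

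**Figure D1:**
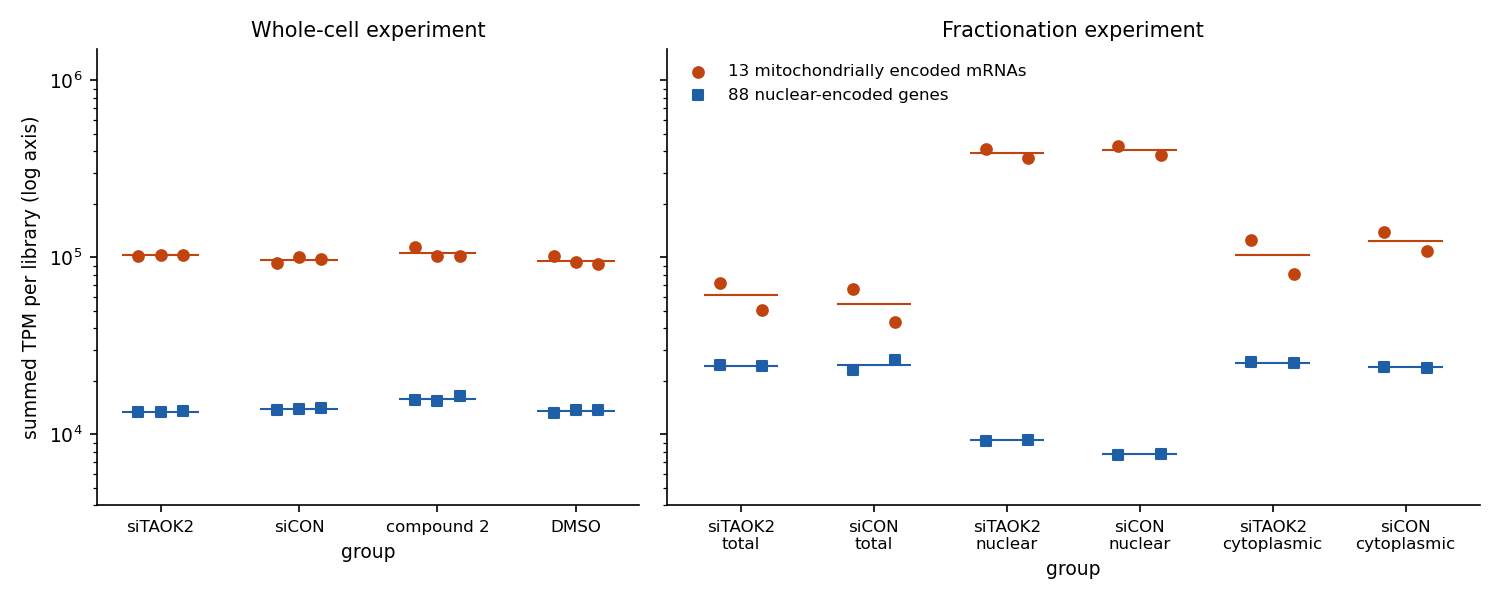
Summed TPM of the 13 mitochondrially encoded mRNAs (circles) and of the 88 nuclear-encoded genes (squares) in each library, on a log axis, with group means as lines. Both sums were higher with compound 2 than with DMSO, and the 2 sums lay farthest apart in nuclear RNA, where siCON libraries held 424867 and 379462 TPM of mitochondrial mRNA.

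Summed over each genome, knockdown and compound 2 differed in the nuclear-encoded set. The nuclear-encoded genes summed to 13405, 13384 and 13503 TPM in siTAOK2 cells, against 13737, 13911 and 14158 TPM in siCON cells, a fold of 0.964. They summed to 15562, 15505 and 16511 TPM with compound 2, against 13248, 13774 and 13838 TPM with DMSO, a fold of 1.16. Groups did not overlap in either pair, and the sum was lower under siTAOK2 and higher with compound 2 in all 3 batches. The 13 mitochondrial mRNAs summed to 101545, 103010 and 103369 TPM in siTAOK2 cells, against 93071, 100799 and 98055 TPM in siCON cells, a fold of 1.05. With compound 2 they summed to 114897, 101957 and 102008 TPM, against 101735, 94425 and 92188 TPM with DMSO, a fold of 1.11. Both sums of the mitochondrial genome were thus higher in the treated cells of each batch, and the ratio of the mitochondrial to the nuclear-encoded sum was 7.64 ± 0.0617 in siTAOK2 cells, against 6.98 ± 0.240 in siCON cells, and 6.71 ± 0.614 with compound 2, against 7.07 ± 0.540 with DMSO (SD, n = 3). The compound 2 ratio was lower in every batch, by 0.06, 0.06 and 0.11 on the log2 scale in size, a small difference that turned to 0.039 upward when mean log2 values of the genes were compared in place of sums. No test was made on sums.

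The whole-cell knockdown comparison asked which mRNAs depend on TAOK2 itself. In it, 13 nuclear-encoded subunit mRNAs fell and 2 rose of 82 tested (limma, Benjamini-Hochberg adjusted p under 0.05), while 14.4% of all 13106 genes fell and 7.78% rose. The share that fell, spread over all 5 complexes, was near that of all genes, and the median log2 change was -0.05, against -0.05 over all genes. By complex, 5 of 37 fell in I, 1 of 4 in II, 2 of 9 in III, 1 of 14 in IV and 4 of 18 in V. Groups did not overlap for 29 of the 82 on the low side, against 29.7% of all genes, and for 7 on the high side, against 18%.

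ATP synthase held the clearest falls of abundant mRNAs. ATP5F1A, the alpha subunit that forms the catalytic head with beta, stood at 229, 216 and 212 TPM in siTAOK2 cells, against 285, 293 and 281 TPM in siCON cells (log2 change -0.38 ± 0.06 SE, adjusted p = 0.000654 by limma). Its partner ATP5F1B did not pass (-0.03 ± 0.06). ATP5MC1, a c-ring subunit gene, stood at 247, 236 and 269.6 TPM, against 302, 325 and 327 TPM in siCON cells (-0.34 ± 0.07, adjusted p = 0.00518 by limma). The other c-subunit genes did not pass, with changes of -0.01 for ATP5MC2 and -0.05 for ATP5MC3. The subunits of a shared module thus did not all move, since alpha and beta, and the 3 c-subunit genes, gave different calls in the same libraries; the differences between these genes were not tested. ATP5F1D, the delta subunit, fell by 0.24. The readthrough gene ATP5MF-PTCD1 stood at 5.43, 5.85 and 6.85 TPM in siTAOK2 cells, against 10.9, 9.62 and 10.3 TPM in siCON cells (-0.68 ± 0.11, adjusted p = 0.00130), while ATP5MF, a membrane subunit, did not pass (-0.03).

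In complex I, NDUFV3, an accessory subunit of the NADH-binding module, stood at 10.7, 10.9 and 11.4 TPM in siTAOK2 cells, against 14.1, 15.4 and 14.8 TPM in siCON cells (log2 change -0.40 ± 0.08, adjusted p = 0.00588 by limma). NDUFA2, an accessory subunit of the matrix arm, stood at 82.7, 80.3 and 76.8 TPM, against 99.1, 103 and 93.5 TPM in siCON cells (-0.30 ± 0.07, adjusted p = 0.00957 by limma). NDUFB10, NDUFB8 and NDUFA11, all of the membrane arm, fell by 0.28, 0.21 and 0.21. NDUFS4, a matrix arm subunit needed for a stable complex, rose: it stood at 101, 99.6 and 97.1 TPM in siTAOK2 cells, against 83.1, 83.0 and 80.6 TPM in siCON cells (0.27 ± 0.05, adjusted p = 0.00323). With batch as a block, NDUFS6 (-0.18, adjusted p = 0.0226) and NDUFA3 (0.33, adjusted p = 0.0356) passed as well. The core subunit genes NDUFS1, NDUFS3, NDUFS7, NDUFS8, NDUFV1 and NDUFV2 did not pass, with log2 changes from -0.21 to 0.04.

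In the other complexes, SDHB, the iron-sulfur subunit of complex II, fell to 81.8, 75.8 and 83.9 TPM in siTAOK2 cells, against 98.0, 91.8 and 105 TPM in siCON cells (-0.28 ± 0.06, adjusted p = 0.00623). In complex III, UQCRC2, a core protein (-0.27), and UQCR10 (-0.26) fell and UQCRB, a ubiquinone-binding subunit, rose (0.20 ± 0.06, adjusted p = 0.0288). UQCRB lost its call without siTAOK2 replicate 2 or 3 or siCON replicate 1 or 3. In complex IV, COX8A fell by 0.17. When library medians were set equal, 5 subunit mRNAs of both genomes rose and 4 fell. Most of the 13 falls thus lost their call under this scaling, ATP5MC1 (-0.30) and NDUFA2 (-0.25) among them. Without siTAOK2 replicate 2, 2 rose and 8 fell. The shares of all genes under these settings are not given here, so whether calls were lost among all genes alike cannot be told. Of the 13 mitochondrial mRNAs, MT-ND1, a core subunit of complex I, rose: it stood at 6191, 6079 and 6109 TPM in siTAOK2 cells, against 5109.6, 5309 and 4969 TPM in siCON cells (0.26 ± 0.06, adjusted p = 0.00958 by limma). The 2 groups did not overlap, and the other 12 did not pass, with changes from -0.07 to 0.17.

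**Figure D2:**
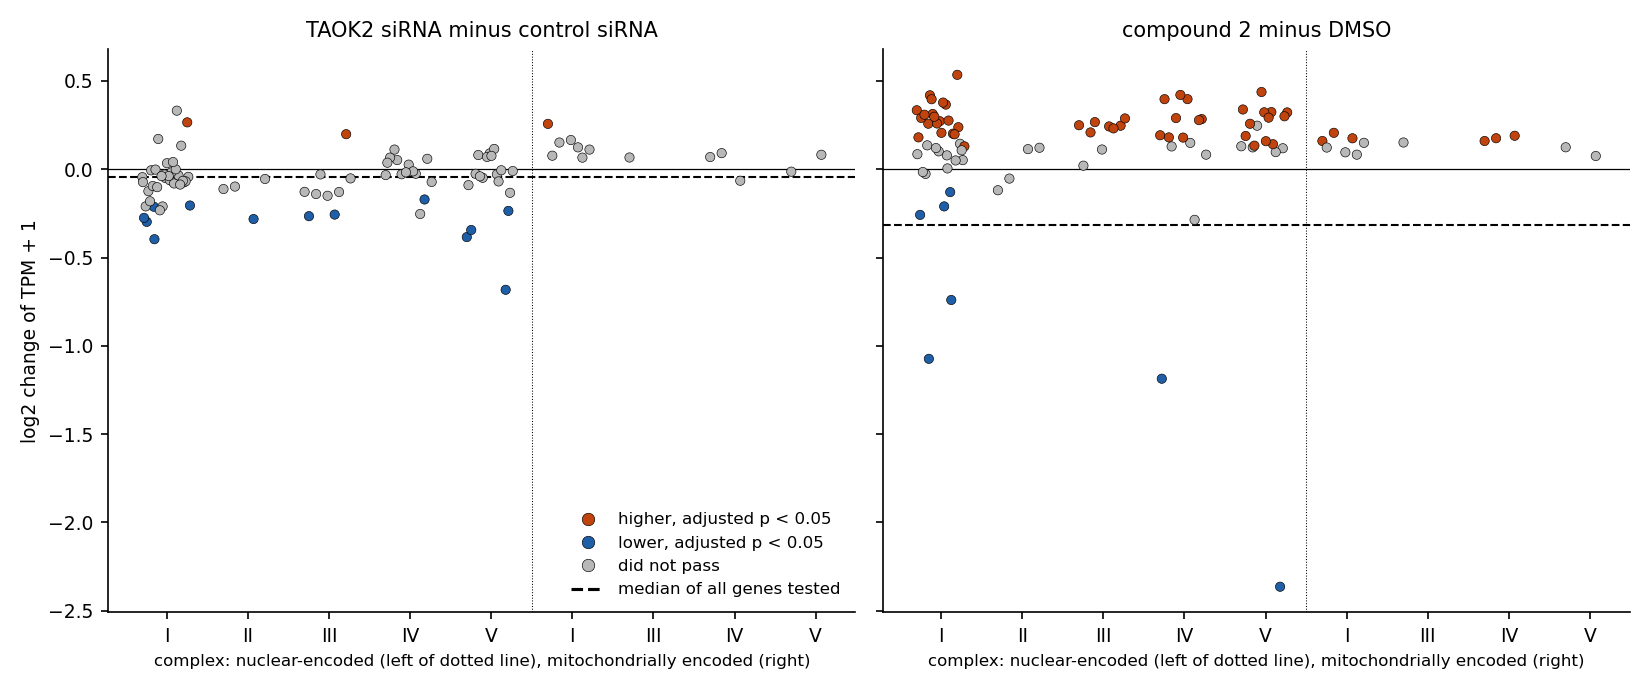
Log2 change of each tested subunit mRNA, by complex and genome, for TAOK2 siRNA minus control siRNA (left) and compound 2 minus DMSO (right). Red points rose and blue points fell at an adjusted p under 0.05, grey points did not pass, and the dashed line is the median of all genes tested, -0.05 on the left and -0.31 on the right.

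Compound 2 moved the subunit mRNAs against the background of a transcriptome in which most genes that changed were lower. With it, 48 nuclear-encoded subunit mRNAs rose and 7 fell of 82 tested, while 12% of all 13106 genes rose and 51.8% fell. Their median log2 change was 0.19, against -0.31 over all genes. By complex, 20 rose and 5 fell of 37 in I, 0 of 4 changed in II, 7 of 9 rose in III, 9 rose and 1 fell of 14 in IV, and 12 rose and 1 fell of 18 in V. The block added SDHA, which then fell, as 1 of the 4 in II. The mRNAs of complex II summed to 497 ± 0.480 TPM with compound 2 and 499 ± 3.38 TPM with DMSO, and those of complex I to 5043 ± 217 TPM with compound 2 and 4299 ± 88.5 TPM with DMSO (SD, n = 3). With library medians set equal, the median change of all genes was 0.19 in place of -0.31, so these directions depend on the scaling. The difference between complexes was not tested. With equal medians, 89 subunit mRNAs of both genomes rose and 3 fell, and NDUFS1 (0.25) and SDHC (0.46) took the other sign. The median of all genes was positive too on this scale. The shares of all genes called there are not given here, so the 89 rises are not read as particular to subunit mRNAs.

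The 48 rises ran from 0.13 for ATP5PD to 0.53 for NDUFC2 on the log2 scale. NDUFC2, a membrane arm subunit of complex I (ENSG00000151366, GRCh38 chromosome 11, 78068304 to 78080219, minus strand), stood at 446, 389.9 and 429.8 TPM with compound 2, against 283, 292 and 297 TPM with DMSO (log2 change 0.53 ± 0.06, adjusted p = 4.11e-06 by limma). ATP5MG, subunit g, needed for dimers of ATP synthase (ENSG00000167283, GRCh38 chromosome 11, 118401154 to 118431496, plus strand), stood at 139.6, 131 and 154 TPM with compound 2, against 101, 103 and 109.7 TPM with DMSO (0.44 ± 0.06, adjusted p = 6.33e-05 by limma). All compound 2 libraries lay above all DMSO libraries for both genes. NDUFA4, a complex IV subunit, held 94.7, 95.1 and 106 TPM with compound 2, against 69.5, 72.1 and 78.4 TPM with DMSO (0.42 ± 0.08). NDUFB2 held 298, 293 and 328 TPM with compound 2, against 217, 227 and 241 TPM with DMSO (0.42 ± 0.06), and COX7B held 129, 134 and 151 TPM with compound 2, against 97.9, 109 and 106 TPM with DMSO (0.40 ± 0.08). In these 3 genes as well the groups did not overlap.

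Across the modules, the core subunits of complex I were split. NDUFS3 (0.40 ± 0.06) and NDUFS7 (0.20 ± 0.08) rose, NDUFS1, which carries iron-sulfur clusters (-0.26 ± 0.07), fell, and NDUFS8 (0.12), NDUFV1 (0.09) and NDUFV2 (0.00) did not pass. Of the membrane arm, NDUFB9 (0.37), NDUFB11 (0.28) and NDUFB7 (0.30) rose. In complex III, CYC1 (0.25), the Rieske protein UQCRFS1 (0.23), UQCRH (0.27) and UQCRQ (0.29) rose, while UQCRC1 (0.11) and UQCRC2 (0.02) did not pass. In complex IV, COX4I1 (0.19), COX6A1 (0.28), COX6C (0.40), COX7A2 (0.29) and COX8A (0.28) rose, while COX5A (0.15) and COX5B (0.13) did not pass, COX5A only with batch as a block (adjusted p = 0.0378). In complex V, ATP5F1B (0.32) and ATP5F1E (0.32) of the catalytic head rose and ATP5F1A (0.13) did not pass, the peripheral stalk genes ATP5PB (0.14), ATP5PD (0.13), ATP5PF (0.30) and ATP5PO (0.16) all rose, and of the c-subunit genes ATP5MC1 rose (0.19) while ATP5MC2 (0.10) and ATP5MC3 (0.25) did not pass, ATP5MC3 only with the block (adjusted p = 0.00830). Of the 23 tested genes whose promoters held an NRF1, ETS or YY1 match, 17 rose and 1 fell, with a median of 0.27. Of the 43 without, 22 rose and 4 fell, with a median of 0.14. The difference between these sets was not tested.

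The mRNAs that fell with compound 2 were mostly of low abundance. ATP5MF-PTCD1 stood at 1.11, 1.22 and 0.837 TPM with compound 2, against 10.4, 9.18 and 9.13 TPM with DMSO (-2.36 ± 0.11, adjusted p = 4.91e-09 by limma), while ATP5MF rose (0.26). NDUFV3 stood at 5.62, 6.86 and 6.02 TPM with compound 2, against 14.2, 13.8 and 14.1 TPM with DMSO (-1.07 ± 0.08, adjusted p = 2.59e-07 by limma), and in its protein-coding transcripts alone it changed by -0.51. NDUFA4L2, a paralogue of NDUFA4 known to be induced by low oxygen, stood at 3.56, 2.03 and 2.23 TPM with compound 2, against 6.85, 7.09 and 7.27 TPM with DMSO (-1.19 ± 0.15), and its change was -0.72 in its protein-coding transcripts alone. For these 3 mRNAs the groups did not overlap, and no compound 2 or DMSO library was above 14.2 TPM. NDUFA3, a membrane arm subunit, stood at 6.14, 6.36 and 5.47 TPM with compound 2, against 12.1, 11.4 and 8.80 TPM with DMSO (-0.74 ± 0.11). Counting its protein-coding transcripts alone, its change was -0.01 and did not pass, and it did not pass with equal library medians either (-0.23). NDUFS1 fell as given above, and NDUFA8 fell by 0.21. NDUFS1 did not pass when the 6 libraries of the pair were fitted alone.

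All 13 mitochondrial mRNAs had positive changes with compound 2, from 0.07 for MT-ATP8 to 0.21 for MT-ND3, and 6 passed. MT-CO1 stood at 19788.5, 18998 and 18230.1 TPM with compound 2, against 17502.5, 17433 and 16111 TPM with DMSO (0.16 ± 0.05, adjusted p = 0.0136 by limma). MT-CO2 stood at 9307, 8735 and 9570 TPM with compound 2, against 8283, 8168 and 7753 TPM with DMSO (0.19 ± 0.05, adjusted p = 0.00544 by limma). MT-CO3 (0.18), MT-ND1 (0.16), MT-ND2 (0.18) and MT-ND3 (0.21) also rose. Of these 6 calls, those of MT-CO2 and MT-CO3 alone held in every alternative that leaves out a library. Without compound 2 replicate 1, the other 4 were lost, MT-CO1 (0.13), MT-ND1 (0.09), MT-ND2 (0.10) and MT-ND3 (0.22), as they were without DMSO replicate 3 (0.12, 0.14, 0.13 and 0.21) and when the 6 libraries of the pair were fitted alone. MT-ND1, MT-ND2 and MT-ND3 were lost without DMSO replicate 2 and without a filter on low values, and MT-ND3 without DMSO replicate 1 or compound 2 replicate 3. With batch as a block, MT-ND5 (adjusted p = 0.0448) and MT-CYB (adjusted p = 0.0389) passed as well.

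The 2 treatments were compared directly by the difference of their changes, knockdown minus compound 2, which share no library. In this test 46 of 95 subunit mRNAs of both genomes were lower and 4 were higher under knockdown, while 12.3% of all genes were lower and 42.4% higher. With library medians set equal, 87 were lower and 3 higher, while 4674 of all 13106 genes were lower and 2766 higher, so the balance of all genes turned with the scaling. Among the 46 were 45 nuclear-encoded mRNAs and MT-CO2 (-0.25 ± 0.07, adjusted p = 0.00913 by limma). Differences were largest for NDUFC2 (-0.60 ± 0.08), NDUFA2 (-0.59 ± 0.10), ATP5MC1 (-0.53 ± 0.10), NDUFB7 (-0.53 ± 0.13) and ATP5F1A (-0.51 ± 0.08) on the low side. On the high side were ATP5MF-PTCD1 (1.68 ± 0.16), NDUFA4L2 (1.22 ± 0.21), NDUFA3 (1.07 ± 0.16) and NDUFV3 (0.68 ± 0.12). With protein-coding transcripts alone, the last 2 did not pass (0.18 for NDUFA3 and 0.03 for NDUFV3), and NDUFA4L2 was at 0.64. By their own calls, 7 mRNAs fell under knockdown and rose with compound 2, ATP5MC1, COX8A, NDUFA11, NDUFA2, NDUFB10, NDUFB8 and UQCR10, and 2, ATP5MF-PTCD1 and NDUFV3, fell in both. MT-ND1 and UQCRB rose in both.

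The makeup of subunit mRNAs by transcript was then tested, as the log2 odds of each transcript within its gene, over 340 transcripts of 77 member genes. Under knockdown 1 transcript changed, NDUFA11-206, which was lower and did not pass with batch as a block, while 0.0863% of all 40564 transcripts changed. With compound 2, 27 rose and 55 fell, in 44 of the 77 genes, while 35% of all transcripts changed in either direction. The 55 include 1 transcript each of ATP5MF-PTCD1 and NDUFA4L2, which with compound 2 stood under the 5 TPM that the test asks for as a mean and reached it through the other groups; at such levels the 0.5 TPM added in the test moves the odds toward even, and their shares are not given. The share of changed transcripts among the subunit genes was below that of all transcripts, and the difference was not tested. By class, 7 of 56 retained-intron transcripts rose and 18 fell, while 18.3% rose and 23.8% fell over all genes.

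COX7B (ENSG00000131174, GRCh38 chromosome X, 77899438 to 77907373, plus strand), a small subunit of complex IV, showed an exchange of transcripts. COX7B-201 held 35.8%, 41.6% and 35.6% of the gene's TPM with compound 2, against 11.5%, 10.9% and 11.1% with DMSO (adjusted p = 5.95e-07 by limma). COX7B-204 held 17.7%, 12.7% and 18.4% with compound 2, against 42.3%, 43.5% and 42.6% with DMSO (adjusted p = 3.62e-06 by limma). The gains and losses were of like size, the groups were far apart, and COX7B-202 stayed at 42.0 ± 0.327% with compound 2, against 41.5 ± 0.405% with DMSO. COX7B-201 has an exon of 124 bases (exon 2, chrX:77901744-77901867) that lies before its annotated coding start, within the 5′ UTR, and that COX7B-202, COX7B-203 and COX7B-204 lack. Its annotated coding length is 180 bases, against 117 for COX7B-204, 180 for COX7B-202 and 240 for COX7B-203.

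SDHA (ENSG00000073578, GRCh38 chromosome 5, 218241 to 256700, plus strand), the flavoprotein of complex II, did not pass as a gene with compound 2 (-0.12 ± 0.05, adjusted p = 0.0586, and 0.0498 with batch as a block), while several of its transcripts did. SDHA-213, which lacks the exon at chr5:225419-225562, held 5.72%, 2.15% and 12% of the gene's TPM with compound 2, against 21.8%, 21.7% and 21.2% with DMSO (adjusted p = 0.00250 by limma). SDHA-201, which has that exon, held 7.24%, 5.17% and 5.30% with compound 2, against 15.1%, 15.3% and 20.7% with DMSO (adjusted p = 0.000641 by limma). Of 8 tested retained-intron transcripts of the gene, 5 rose and 1 fell, and all 10 in the annotation together held 42.8%, 48.1% and 37.0% of SDHA TPM with compound 2, against 19.9%, 18.4% and 17.1% with DMSO. Its protein-coding transcripts together held 55.4 ± 5.61% with compound 2 and 80.4 ± 2.04% with DMSO (SD, n = 3). Among the retained-intron transcripts, SDHA-216 reached 6.21 ± 1.08%, against 0.300 ± 0.121% with DMSO, and SDHA-218 reached 8.87 ± 2.18%, against 0.993 ± 0.148% with DMSO. SDHA-216 starts at chr5:227609 within the intron before the exon that begins at chr5:228185. Under knockdown the retained-intron share of SDHA was 18.5 ± 1.58%, against 16.8 ± 2.61% with siCON.

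**Figure D3:**
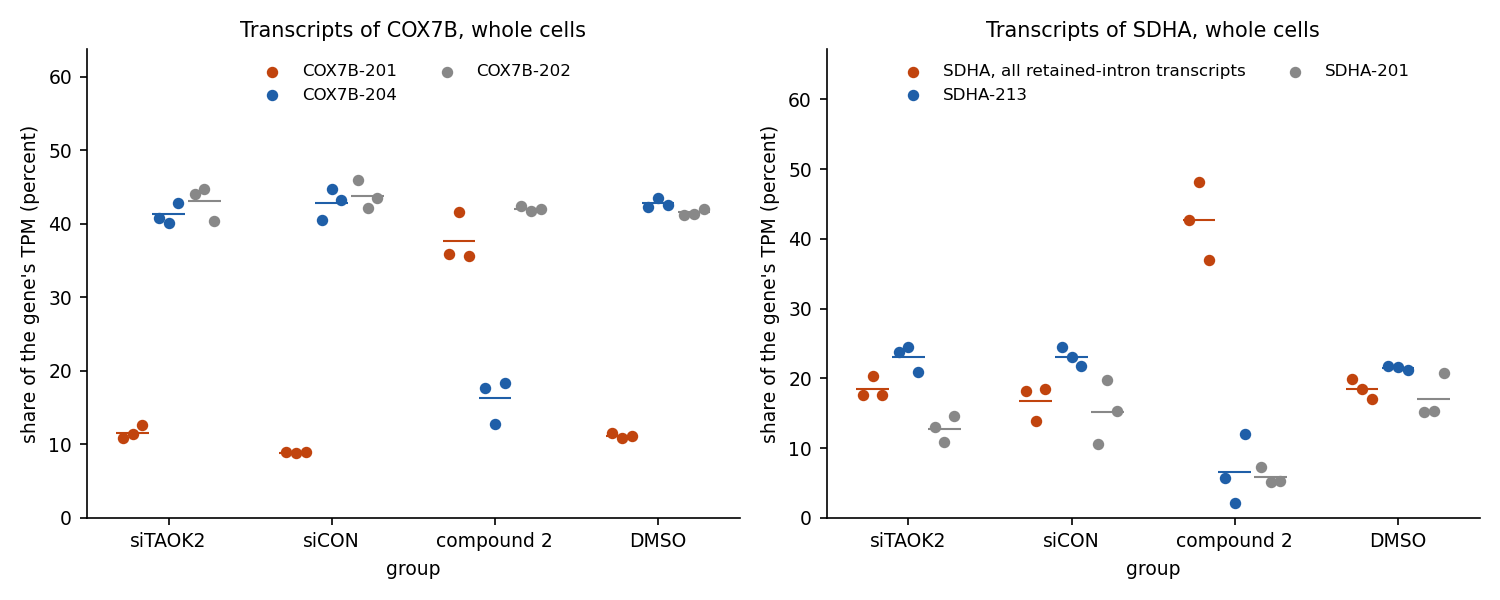
Share of the gene's TPM held by single transcripts of COX7B (left) and SDHA (right) in each whole-cell library, with group means as lines. With compound 2, COX7B-201 reached 35.6% to 41.6%, and the retained-intron transcripts of SDHA together reached 37.0% to 48.1%.

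The fractionation experiment compared the mRNAs between nuclear and cytoplasmic RNA. In siCON cells, nuclear-encoded subunit mRNAs were depleted in nuclear RNA: they summed to 7660 and 7763 TPM in nuclear RNA, against 24004 and 23841 TPM in cytoplasmic RNA, a fold of 0.322. The mitochondrial mRNAs ran the other way, with 424867 and 379462 TPM in nuclear RNA, against 139131 and 108235 TPM in cytoplasmic RNA, a fold of 3.25. The mean mitochondrial share of nuclear RNA was 40.2%, against 12.4% in cytoplasmic RNA, and where this RNA came from was not tested. In siCON total RNA the mean share was 5.49%, below both fractions. On this scale the 2 fractions thus do not add up to total RNA, and differences between them are not amounts per cell. Because such a share lowers all other TPM, the nuclear-encoded sum was also taken per 1000000 TPM outside the 13 mRNAs, where it was 12914 in nuclear RNA, against 27309 in cytoplasmic RNA, a fold of 0.473. Of 83 nuclear-encoded mRNAs tested, 54 were lower and 5 higher in nuclear RNA (limma), while 18.9% of all 13751 genes were lower and 29.8% higher. Their median log2 difference was -1.56, against 0.21 over all genes, and rescaling over nuclear genes brought it to -1.04, against 0.74 over all genes. On that scale 40 of these mRNAs were lower and 11 higher, and the shares of all genes called there are not given here. With batch as a block, 64 were lower and 7 higher, while 27.7% of all genes were lower and 40.5% higher. The mRNAs added by the block were NDUFV1 (1.61) and SDHA (0.48) on the high side, and NDUFA11, NDUFC2-KCTD14, UQCR11, UQCRC1, COX7B, ATP5F1A, ATP5F1B, ATP5F1C, ATP5ME and ATP5MF-PTCD1 on the low side.

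**Figure D4:**
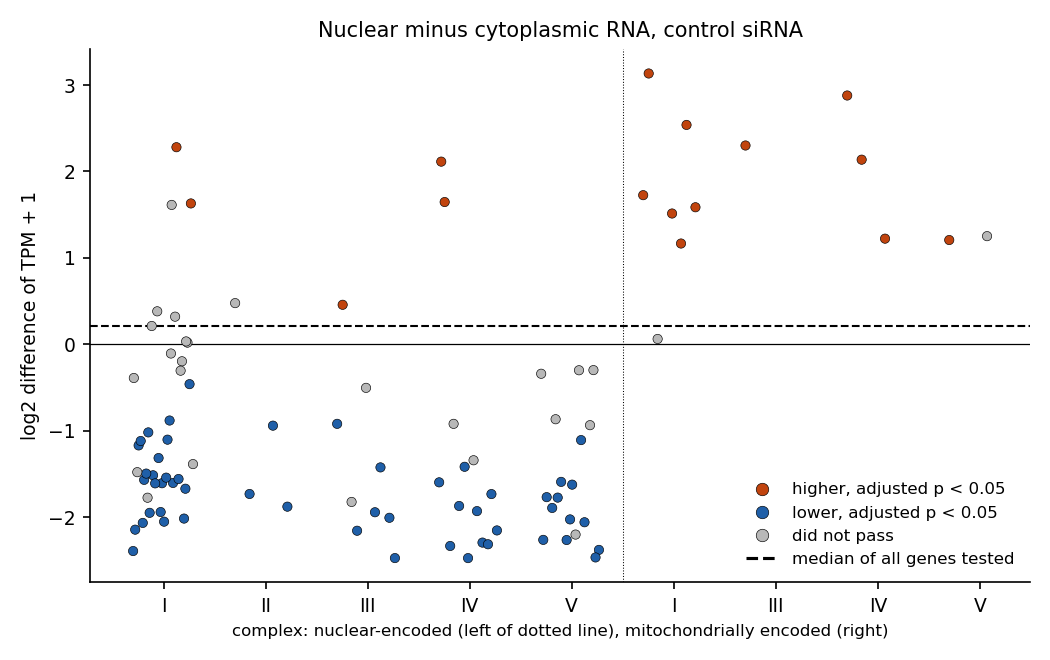
Log2 difference of nuclear minus cytoplasmic RNA in siCON cells for each tested subunit mRNA, by complex and genome. Blue points, lower in nuclear RNA, fill complexes I to V of the nuclear genome, while 11 of 13 mitochondrial mRNAs are higher in nuclear RNA; the dashed line is the median of all genes, 0.21.

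By complex, 23 of 38 were lower in nuclear RNA in I, 3 of 4 in II, 6 of 9 in III, 10 of 14 in IV and 12 of 18 in V. Among those furthest to the cytoplasmic side was COX6B1, which sits on the outer face of complex IV, with 302 and 305 TPM in nuclear RNA, against 1494 and 1915 TPM in cytoplasmic RNA (-2.48 ± 0.22, adjusted p = 5.27e-05 by limma). ATP5PF held 54.3 and 52.7 TPM in nuclear RNA, against 284 and 318 TPM in cytoplasmic RNA (-2.47 ± 0.20, adjusted p = 4.46e-05 by limma). NDUFA1 (-2.39 ± 0.29), the ATP synthase subunit ATP5MD (-2.38 ± 0.14) and UQCRQ (-2.48 ± 0.59) were close to them, though UQCRQ lost its call without siCON nuclear replicate 2 (-1.82) or cytoplasmic replicate 1 (-1.98). The marker genes followed, NDUFC2 with 35.0 and 21.4 TPM in nuclear RNA, against 148 and 79.0 TPM in cytoplasmic RNA (-1.94 ± 0.41), and ATP5MG with 43.3 and 58.1 TPM, against 210.3 and 286 TPM in cytoplasmic RNA (-2.27 ± 0.36). In each of these genes both nuclear libraries lay below both cytoplasmic ones.

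On the TPM scale, several large or catalytic subunits differed little between fractions and did not pass: NDUFS1 (0.32), SDHA (0.48), ATP5F1A (-0.34) and ATP5F1B (-0.30). Of these, SDHA, ATP5F1A and ATP5F1B passed with batch as a block (adjusted p = 0.00626, 0.0150 and 0.0387 by limma). The mitochondrial share of nuclear RNA lowers such differences, and the values of these genes rescaled over nuclear genes are not given here. The core subunit NDUFV1 did not pass without the block either, but its difference was large (1.61). In its protein-coding transcripts alone ATP5F1B was at -0.57 and passed without the block. Across 77 genes the difference went with the length of the leading transcript (Spearman rho 0.447, Pearson r 0.284, across genes that share these 4 libraries): 52 genes with a leading transcript under 1000 bases had a median of -1.75, and the 25 longer ones a median of -0.94. NDUFA3 was higher in nuclear RNA, with 28.4 and 52.4 TPM, against 8.65 and 5.88 TPM in cytoplasmic RNA (2.28 ± 0.50, adjusted p = 0.00572 by limma), but not in its protein-coding transcripts (0.19). UQCRC2 was slightly higher too (0.46 ± 0.16), a call lost without any single siCON nuclear or cytoplasmic library and turned round in protein-coding transcripts (-0.11). NDUFA4L2 was higher too, with 15.8 and 11.1 TPM in nuclear RNA, against 2.86 and 1.81 TPM in cytoplasmic RNA. The last 2 of the 5, COX6B2 with 4.06 and 3.17 TPM and NDUFA6 with 2.84 and 3.44 TPM in nuclear RNA, reached the mean of 1 TPM only through nuclear RNA, where they were high, so their place among the 5 follows from the filter. Counting protein-coding transcripts alone, 1 nuclear-encoded mRNA was higher in nuclear RNA and 57 were lower, and the shares of all genes in that fit are not given here.

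Nuclear RNA held more incompletely spliced transcripts of the subunit genes. Retained-intron transcripts made up 9.05% and 10.5% of the nuclear-encoded TPM in siCON nuclear RNA, against 1.32% and 0.907% in cytoplasmic RNA. Over all protein-coding genes outside the mitochondrial genome the shares were 16.2% and 16.5% in nuclear RNA, against 4.77% and 4.18% in cytoplasmic RNA. In the transcript test, 113 of 370 transcripts were higher and 38 lower in nuclear RNA, in 56 of 75 genes, while 36.7% of all 40541 transcripts changed. Of 73 retained-intron transcripts, 52 were higher and 2 lower, while 57.8% were higher and 2.56% lower over all genes. NDUFB2-201 held 11.7% and 7.13% of NDUFB2 in nuclear RNA, against 86.9% and 87.1% in cytoplasmic RNA, and the processed transcript NDUFB2-204 held 27.6% and 37.7%, against 0.306% and 0.571% in cytoplasmic RNA. As a gene NDUFB2 did not pass (0.02 ± 0.43). In NDUFA10 the retained-intron transcript NDUFA10-212 held 39.6% and 37.2% in nuclear RNA, against 1.39% and 1.33% in cytoplasmic RNA. The main transcripts NDUFV1-201, NDUFA4-201, NDUFA10-214 and NDUFS3-201 also held smaller shares in nuclear RNA, by the same test.

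The 13 mitochondrial mRNAs differed widely from each other in their nuclear to cytoplasmic difference, although all come from the same organelle. MT-ND5 stood at 9122 and 9241 TPM in nuclear RNA, against 1101 and 991 TPM in cytoplasmic RNA (3.13 ± 0.17, adjusted p = 1.23e-05 by limma). MT-CO1 stood at 59515 and 62180.5 TPM in nuclear RNA, against 8774 and 7785 TPM in cytoplasmic RNA (2.88 ± 0.17, adjusted p = 1.40e-05 by limma). MT-ND3, by contrast, stood at 11676 and 7427 TPM in nuclear RNA, against 10399 and 7659 TPM in cytoplasmic RNA, and did not pass (0.06 ± 0.43). The 2 fractions overlapped for MT-ND3 and were far apart for the other pair. Between them lay MT-ND6 (2.54), MT-CYB (2.31), MT-CO3 (2.14), MT-ND1 (1.73), MT-ND4 (1.59), MT-ND4L (1.51), MT-CO2 (1.22), MT-ATP6 (1.21) and MT-ND2 (1.17), which all passed, and MT-ATP8 (1.25 ± 1.21), which passed only with batch as a block (adjusted p = 0.00320). MT-ATP8 varied most between batches, with 64530.3 and 20025 TPM in nuclear RNA, against 26544 and 8587 TPM in cytoplasmic RNA. MT-ND4L (1.13) and MT-ND2 (0.78) lost their calls with equal library medians. Both also lost them without siCON cytoplasmic replicate 2 (1.30 and 0.86) or nuclear replicate 1 (1.07 and 1.04), and MT-ND2 without nuclear replicate 2 (1.29). In siTAOK2 cells the order was much the same, with 3.42 for MT-ND5, 3.24 for MT-CO1 and 0.86 for MT-ND3 as means of the log2 ratio over 2 batches, and the effect of knockdown on the nuclear to cytoplasmic difference passed by limma for 0 of 96 subunit mRNAs, 2 at an unadjusted p under 0.05, and for 0 of 13751 genes, with or without the block.

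**Figure D5:**
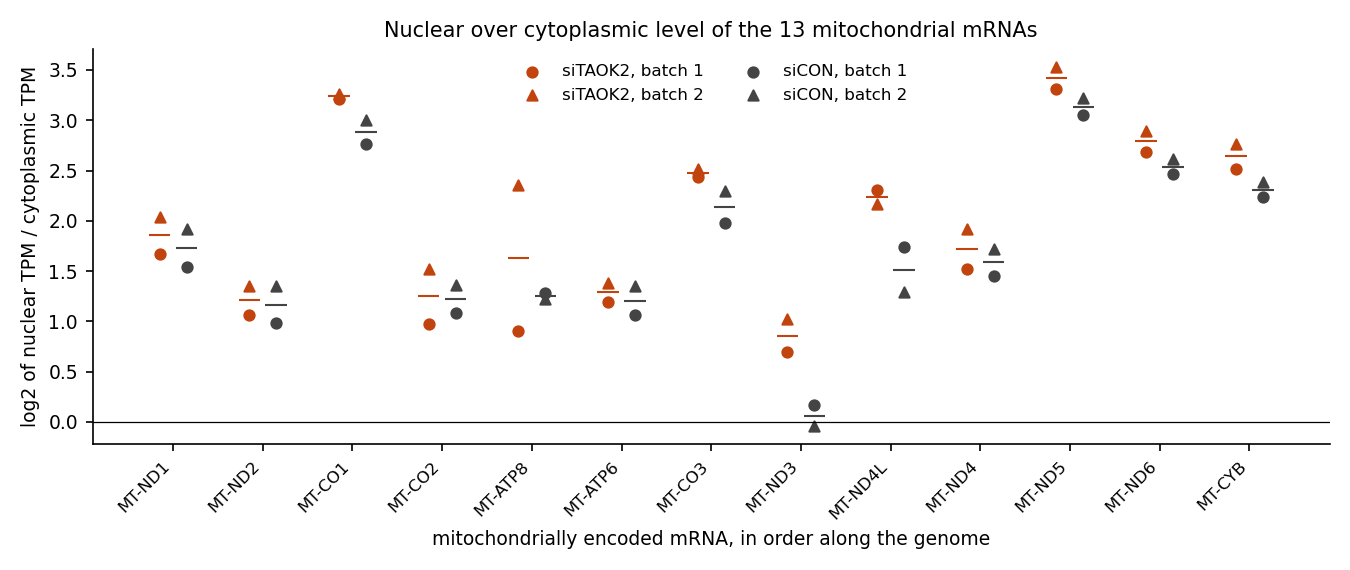
Log2 ratio of nuclear to cytoplasmic TPM for the 13 mitochondrial mRNAs, in their order along the genome, in siTAOK2 (left of each pair) and siCON cells, by batch. MT-ND5 has the highest ratio (siTAOK2 mean 3.42, siCON mean 3.14) and MT-ND3 the lowest (0.86 and 0.06).

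Knockdown was also measured within each RNA fraction, with 2 libraries per group. In nuclear RNA, nuclear-encoded subunit mRNAs summed to 9204 and 9301 TPM in siTAOK2 cells, against 7660 and 7763 TPM in siCON cells, a fold of 1.20 (1.17 on the scale without mitochondrial mRNAs). Groups did not overlap. By limma 0 of 96 subunit mRNAs passed, 10 at an unadjusted p under 0.05, while 0.0145% of all genes passed. With batch as a block, 7 rose and 2 fell, while 2.77% and 3.13% of all genes did: NDUFA1, NDUFB3, NDUFS5, COX5A, COX6C, ATP5MC3 and ATP5MG rose, by 0.45 to 0.55, and NDUFA4L2 (-1.23) fell. The other fall was that of COX6B2 (-0.86), which passed the filter on low values only through nuclear RNA, so no weight is put on it. ATP5MG held 59.0 and 82.0 TPM in siTAOK2 nuclear RNA, against 43.3 and 58.1 TPM in siCON nuclear RNA (0.46 ± 0.11, adjusted p = 0.0441 by limma with the block). NDUFB3 held 85.9 and 98.6 TPM, against 67.2 and 67.2 TPM in siCON nuclear RNA (0.45 ± 0.09, adjusted p = 0.0304 by limma with the block). Neither gene overlapped between the groups. Without overlap, 31 of 83 nuclear-encoded mRNAs were above their siCON level and 4 below, against 15.8% and 22.7% of all genes. Their median log2 change was 0.24, against -0.05 over all genes. This direction was not particular to subunit mRNAs. Of 84 cytosolic ribosomal protein genes, 21 were above and 3 below, with a median of 0.22. Of 78 mitochondrial ribosomal protein genes, 15 were above and 9 below, with a median of 0.08. Retained-intron transcripts made up 6.57% and 7.56% of the nuclear-encoded TPM in siTAOK2 nuclear RNA, against 9.05% and 10.5% in siCON nuclear RNA, and 13% and 13.2%, against 16.2% and 16.5%, over all protein-coding genes outside the mitochondrial genome.

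In cytoplasmic RNA, the 13 mitochondrial mRNAs summed to 125843 and 81008 TPM in siTAOK2 cells, against 139131 and 108235 TPM in siCON cells. The groups overlapped, and siTAOK2 was lower within each batch. All 13 changes were negative, with a median of -0.30 that was -0.04 without siTAOK2 replicate 2, -0.15 without siCON replicate 1, -0.45 without siCON replicate 2 and -0.49 without siTAOK2 replicate 1, and 0 of 96 subunit mRNAs passed by limma, 6 at an unadjusted p under 0.05, as did 0% of all genes. With batch as a block, MT-ND3 (-0.92 ± 0.11, adjusted p = 0.00665), MT-ND4L (-0.77 ± 0.11, adjusted p = 0.0105) and MT-CO1 (-0.49 ± 0.11, adjusted p = 0.0464) fell by limma, while 1.45% of all genes fell and 1.49% rose. MT-ND3 stood at 6404 and 3462 TPM in siTAOK2 cytoplasmic RNA, against 10399 and 7659 TPM in siCON cytoplasmic RNA, with no overlap. Nuclear-encoded mRNAs summed to 25717 and 25275 TPM, against 24004 and 23841 TPM in siCON cytoplasmic RNA, also without overlap. In total RNA, mitochondrial mRNAs summed to 71345 and 50644 TPM with siTAOK2, against 66333 and 43389 TPM with siCON, and nuclear-encoded ones to 24604 and 24408 TPM, against 23143 and 26233 TPM with siCON. These groups overlapped, and by limma 0 of 96 subunit mRNAs passed with or without the block, 1 at an unadjusted p under 0.05, as did 0% of all genes without it, while 228 of 13751 genes rose and 111 fell with it. With 2 libraries per group the test recovered 0% of simulated log2 changes of 1 in total RNA, so such counts of 0 say little.

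Genes that serve the respiratory chain without being subunits were counted from lists of their own, beside the 14.4% of all genes that fell and the 7.78% that rose under knockdown. Of 78 mitochondrial ribosomal protein genes, 40 fell and 0 rose, with a median of -0.21, against -0.05 over all genes. Of 26 genes of mitochondrial protein import, 20 fell and 0 rose (GRPEL1 -0.86, TIMM13 -0.48, TOMM40 -0.48). Of 17 complex I assembly factors, 7 fell and 0 rose (TMEM126B -0.58, TMEM186 -0.50), and of 18 genes of the citric acid cycle and pyruvate dehydrogenase, 7 fell and 0 rose (DLST -0.68, IDH3B -0.47). The falls were fewer among 37 assembly factors of the other complexes, with 8 (LYRM7 -0.77, COA4 -0.46), among 35 genes of mitochondrial RNA and DNA, with 8 (POLRMT, the mitochondrial RNA polymerase, -0.53), and among 9 regulators of mitochondrial biogenesis, with 2 (GABPB1, a subunit of GABP, -0.75, and NRF1, -0.28), and 0 rose in each. Of 20 genes for carriers and other enzymes around ubiquinone, 5 fell (DHODH, which passes electrons to ubiquinone in pyrimidine synthesis, -0.90) and 1 rose (GPD2, which does so from glycerol 3-phosphate, 0.41). The falls with the block were 42, 21, 8, 8, 9, 11, 4 and 6 in the order given, and 1 gene rose in each of the lists of import, of mitochondrial RNA and DNA, and of carriers. Over all 13106 genes, 2294 fell and 1366 rose with the block. None of the shares of these lists was tested against that of all genes.

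With compound 2, while 12% of all genes rose and 51.8% fell, the same lists were mixed. Of the 78 mitochondrial ribosomal protein genes, 14 rose and 29 fell, with 3 and 11 of 26 import genes (TIMM44 -1.14, TOMM20 0.49), 0 and 6 of 17 complex I assembly factors (TMEM186 -2.42, NDUFAF1 -0.79), 2 and 6 of 18 citric acid cycle and pyruvate dehydrogenase genes, 6 and 16 of 37 other assembly factors, 1 and 8 of 20 carriers and ubiquinone enzymes, and 3 and 24 of 35 genes of mitochondrial RNA and DNA (MGME1 -1.83, FASTKD5 1.29). Of the 9 regulators of biogenesis 2 rose, YY1 (0.33) and NRIP1 (0.85), and 3 fell, GABPB1 (-1.37), GABPB2 (-1.30) and ESRRA, an orphan nuclear receptor that drives mitochondrial genes (-0.84). The block moved each of these counts by at most 1. With it, 1738 of all 13106 genes rose and 7090 fell with compound 2, and 1366 rose and 2294 fell under knockdown. Of 83 cytosolic ribosomal protein genes, 65 rose and 1 fell with compound 2 (73 and 1 with batch as a block), and 25 rose and 3 fell under knockdown (43 and 4 with batch as a block). In siCON cells 76 of 84 were lower in nuclear RNA than in cytoplasmic RNA and 0 higher, with a median of -2.23. Whether the subunit mRNAs differ from these in any comparison was not tested.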

How the data were processed

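Polyadenylated RNA of A549 cells was sequenced in 24 libraries as paired reads of 150 bp, per the labels' protocols. The deposited values are TPM per transcript, computed by the authors with kallisto (version not given in the sources used here) on GRCh38.p14, per the submitters' processing notes. TPM keeps no read total, so depth is unknown and no counting interval is given. Of 188753 transcripts, 169797 (89.96%) matched GENCODE 29, with 97.0% to 98.3% of TPM per library, and were summed to 35579 genes.

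Samples were grouped and given batches by their labels. Each experiment was fitted on its own, on log2(TPM + 1), which understates changes of low genes, keeping genes whose mean reached 1 TPM there, by limma 3.58.1 (statmod 1.5.0, R 4.3.3) with group means over all 12 libraries, trend and robust moderation, and Benjamini-Hochberg adjustment at 0.05 over all genes of a comparison. Errors of log2 values are moderated standard errors. Transcript usage was tested on log2 odds with 0.5 TPM added, in genes of at least 5 TPM, over all such transcripts.

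Batch labels pair the libraries: residuals of same-batch libraries correlated at 0.531 to 0.837 in the fractionation experiment (30 of 30 pairs over 0.1) and at -0.302 to 0.639 in whole cells (12 of 18). Member genes whose call changed with batch as a block are named, and block counts are given for most comparisons.

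The members, lists and tests were chosen with earlier results of these data known. Named genes are the 13 mitochondrial mRNAs, MT-CO1, NDUFC2 and ATP5MG, the most abundant nuclear-encoded mRNA of each complex, tissue-form paralogues and, per comparison, the 5 largest rises and 5 largest falls among nuclear-encoded members called at 0.05 that averaged 5 TPM or more and kept their sign in every batch; others are named by role after their values were seen. On simulated log2 values made from the whole-cell knockdown libraries (13106 genes), 57% of changes of 0.5 and 92% of changes of 1 were recovered; in total RNA of the fractionation experiment (13751 genes) 0% of either were. Alternatives were another pseudocount (0.1 TPM), filter (none, 5 TPM), scaling, transcript set, batch block, fit to the compared groups alone and leaving out each library. Marker lists of other cells had few tested genes in whole cells: 2 leukocyte genes, with CD68 lower under knockdown (-0.39), and 1 fibroblast or endothelial gene, which did not pass. Marker levels differed between the experiments. Over all fractionation libraries LYZ averaged 21.5 TPM, against 0.683 TPM in whole cells, EPCAM 62.9, against 8.36, and CDH1 61.2, against 13.6. KRT7 averaged 892 TPM there, against 2385, and COL1A1 3.57, against 14.2. The difference between the experiments was not tested. Values of some single genes are not reported here.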

Additional observations from a re-analysis of the deposited data

Results flagged for a closer look

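Some effects ran in opposite directions in 2 settings. The knockdown effect on the mitochondrial sum, as a log2 difference, was higher in total RNA than in nuclear RNA by 0.22 and than in cytoplasmic RNA by 0.45, since both batches were positive in total RNA and both negative in each fraction. The knockdown effect on the log2 ratio of the mitochondrial to the nuclear-encoded sum was likewise higher in total RNA than in nuclear RNA by 0.49 and than in cytoplasmic RNA by 0.55. In siCON cells the mean mitochondrial share was 5.49% in total RNA, against 40.2% in nuclear and 12.4% in cytoplasmic RNA. Total RNA is thus not the sum of the fractions on this scale. Between treatments of whole cells, the effect on the nuclear-encoded sum differed by -0.27 (knockdown minus compound 2) and that on the log2 ratio by 0.21, each with all 3 batches of knockdown on one side of 0 and all 3 of compound 2 on the other. These 6 differences were not tested.

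For single mRNAs the difference was tested in all 95, and 7 had opposite calls. Flagged here are the 2 among the largest changes of their comparison. ATP5MC1 (-0.53, adjusted p = 0.000685 by limma) and NDUFA2 (-0.59, adjusted p = 0.000286 by limma) fell under knockdown and rose with compound 2, in 3 of 3 batches each. With library medians set equal, neither fall under knockdown passed (-0.30 and -0.25).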

How the results depend on the processing

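Of the counts and genome ratios under all alternatives, 163 values stayed within their bounds, 9 moved and 3 changed sign; of the values of named genes, 2461 kept direction and call, 31 gained and 58 lost a call, and 5 changed sign. Median-centred values gave 9 called mRNAs for knockdown in whole cells, 92 for compound 2 and 90 for their difference, and turned NDUFS1 (0.25) and SDHC (0.46) under compound 2 and MT-ND1 (-0.37) and MT-ND4L (-0.39) in the difference. Protein-coding transcripts alone turned UQCRC2 between fractions (-0.11) and gave a nuclear minus cytoplasmic log2 ratio of the genomes of 3.55; the difference of mean log2 values gave 2.85 there and 0.039 for compound 2. With batch as a replicate block, 9 members were called for knockdown in nuclear RNA, 3 in cytoplasmic RNA, and 0 transcripts for knockdown in whole cells. In the difference of the treatments it added ATP5MC3 (-0.29) and ATP5PD (-0.17). Fitting the compared groups alone gave 23 called members for knockdown in whole cells and 42 for compound 2 (37 rose, 5 fell), with 2 mitochondrial mRNAs among them in place of 6. Leaving out each library in turn gave 10 to 14 called members for knockdown in whole cells, 48 to 60 for compound 2, 41 to 49 for their difference, 55 to 61 between fractions and 0 in the other fraction comparisons. The log2 ratio of the genomes then ran from 0.11 to 0.16 for knockdown, -0.15 to -0.01 for compound 2, -0.41 to -0.23 in nuclear RNA, -0.68 to -0.07 in cytoplasmic RNA, 3.17 to 3.52 between fractions and -0.22 to 0.57 in total RNA, where it was -0.07 without siTAOK2 replicate 1 and -0.22 without siCON replicate 2. The counts of called members in this section stand without the share of all genes under each alternative. The causes were not tested. TPM keeps no depth, which limits every value of a low mRNA.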
